A study of Mus musculus with 18 samples.

Results

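The MYC family genes are the MYC paralogs Myc, Mycn and Mycl, their shared partner Max, and the other genes whose proteins pair with MAX: Mga, Mnt, Mxi1, Mxd1, Mxd3 and Mxd4. These 10 members were chosen by gene symbol, by a rule that used no measured value although earlier results of these data were known, from the 35773 genes of the deposited tables, and each symbol matched 1 gene identifier. RNA-seq was measured in 6 kinds of mouse pluripotent stem cells with 3 samples each, 18 in all, every one labelled strain 129S2/SvPasCrl and wild type. The groups were naive embryonic stem cells (ESCs) kept in 2i/LIF, which combines a MEK and a GSK3 inhibitor with LIF, epiblast-like cells (EpiLCs), epiblast stem cells (EpiSCs), AFSCs, ASCs and ESC-ASCs. AFSCs were primed cells from blastocysts grown in N2B27 with activin A and bFGF. ASCs were AFSCs moved into ABCL medium, which is N2B27 with activin A, BMP4, the GSK3 inhibitor CHIR99021 and LIF, and ESC-ASCs were ESCs moved into the same medium. The count columns of the ESC-ASC samples carry the name mSQ, unlike those of the ESC samples, and the labels do not say that the ESC samples were their parental line. The study's methods describe blastocysts from 129/sv females mated with reporter males of mixed background, so the strain label does not give the whole background of each line. The labels do not say which samples came from separate lines, and the p-values therefore measure the spread between these samples, which may be technical.

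MYC proteins are transcription factors of the basic helix-loop-helix leucine zipper class that bind E-box DNA only as heterodimers with MAX, and they raise transcription of genes for ribosome biogenesis, nucleotide synthesis and cell growth. The MXD proteins, MXI1 and MNT also pair with MAX, occupy the same E-boxes and recruit SIN3 corepressors, so they oppose MYC. MGA pairs with MAX inside the Polycomb complex PRC1.6, which keeps germline genes silent in embryonic stem cells, and MYC itself is known to sustain self-renewal and growth of mouse embryonic stem cells.

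The libraries held 4961934 to 18071600 counted reads. The ESC-ASC libraries, at 17813619 to 18071600, were each deeper than any other library, so depth and cell type cannot be told apart in that group. Replicate 1 of ASC, AFSC, EpiLC and ESC stood apart from replicates 2 and 3 of its own group, with a chi-square per degree of freedom of 19.6 to 92.1 against 1.61 to 10.97 between replicates 2 and 3, and values are given without these 4 libraries beside each member result whose call they changed. Those fits kept only replicates 2 and 3 in these groups. Their smaller spread may be technical, so a lower adjusted p or a gained call there is not stronger evidence. The labels were checked against markers as summed normalized read counts per kb of exon. The sum over 6 naive genes was 2819 to 4878 in ESC, ESC-ASC and ASC samples and 9.02 to 121 in EpiLC, AFSC and EpiSC samples. The sum over 3 primitive streak genes (T, Eomes and Mixl1) was 917.5 to 990.7 in EpiSC samples and 200.7 to 338.2 in AFSC samples, against 16.3 to 52.9 elsewhere, so it moved with the primed groups. Summed markers of other lineages reached at most 116 for fibroblasts or feeders, 65.5 for primitive endoderm, 118 for trophoblast and 299 for neural cells, against at least 6207 for the core genes Pou5f1, Sox2 and Nanog, and their part in the results was not tested. Most of the core sum in EpiLCs, AFSCs and EpiSCs was Pou5f1. Mean Sox2 was 76.1 in EpiSCs against 2329 in ESCs, below the neural sum of EpiSC samples (166.8 to 191.8). Mean Nanog was 220.1 in EpiLCs against 4109 in ESCs. In bulk RNA, fewer cells of a type and less RNA per cell cannot be told apart.

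Levels below are read counts normalized for depth per kb of exon, with the SD over 3 samples, and can be compared between genes. Differences are log2 fold changes from edgeR's quasi-likelihood test over the 16901 genes with enough reads, with Benjamini-Hochberg adjusted p-values, and a gene was called at an adjusted p below 0.05. All 10 members were tested and all 10 were called for any difference among the 6 groups, where 94.4% of all tested genes were.

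The members called in each comparison are given beside the share of all genes called, and whether they differ from it was not tested. The same shares apply to the counts of the gene lists below, which were not tested against them either. In ASCs against ESCs 6 of 10 members were called, 2 higher (Myc and Mga) and 4 lower (Mycl, Max, Mnt and Mxd1), where 50.3% of all genes were (26.4% higher and 23.9% lower). In ASCs against AFSCs 6 were called (64.0% of all genes, 32.8% higher and 31.2% lower), with Mga, Mnt and Mxi1 higher and Myc, Mxd3 and Mxd4 lower. EpiLCs against ESCs gave 8 (55.3%), with 3 higher (28.7%) and 5 lower (26.6%), and EpiSCs against ESCs gave 8 (61.2%), with 4 higher (29.2%) and 4 lower (32.0%). AFSCs against EpiSCs gave 5 (39.4%), with 2 higher (21.6%) and 3 lower (17.8%). ESC-ASCs against ESCs gave 7 (60.1%), of which Mga alone was higher (30.6%) and 6 were lower (29.6%). ESC-ASCs against ASCs gave 7 (50.7%), of which Max alone was higher (23.0%) and 6 were lower (27.7%). Without the 4 libraries that stood apart, a larger share of all genes was called in each of these comparisons, and the member counts were 5 in ASCs against ESCs (52.9% of all genes), 7 in ASCs against AFSCs (65.4%), 9 in EpiLCs against ESCs (62.1%) and 9 in EpiSCs against ESCs (71.9%). They were 7 in AFSCs against EpiSCs (55.0%), 7 in ESC-ASCs against ESCs (69.0%) and 8 in ESC-ASCs against ASCs (59.9%).

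**Figure D1:**
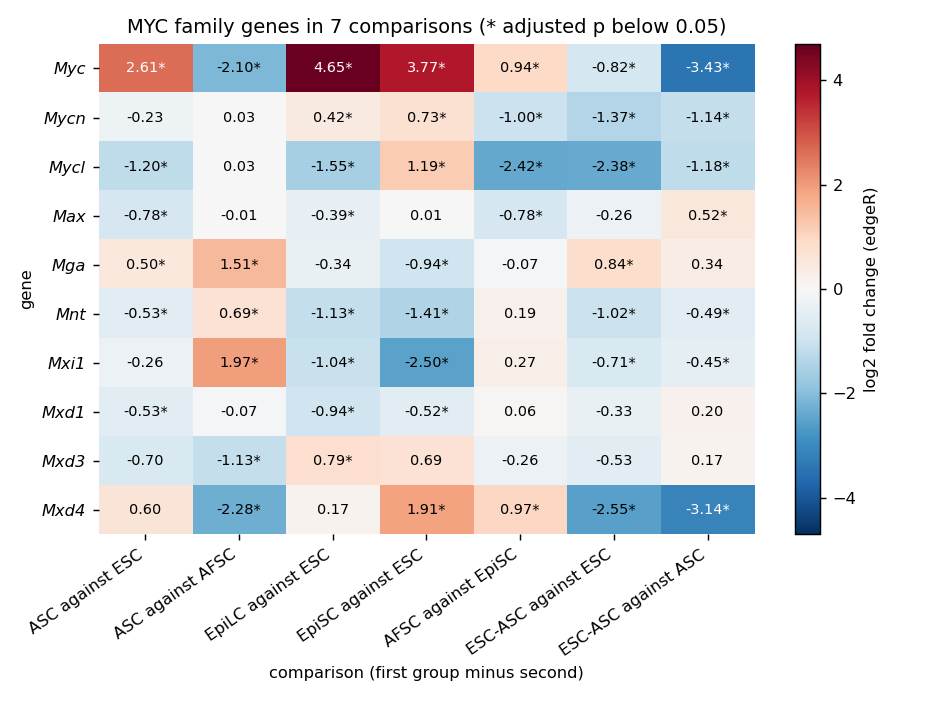
Log2 fold changes of the 10 members in 7 comparisons (first group minus second, edgeR), coloured from blue for lower to red for higher, with an asterisk where the adjusted p was below 0.05. The Myc row holds the widest values, from -3.43 in ESC-ASC against ASC to 4.65 in EpiLC against ESC.

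Myc (ENSMUSG00000022346, chr15:61985341-61990374 in GRCm38, plus strand), which encodes c-MYC, was the member with the widest range. Its level was 8.54, 10.1 and 7.26 in the ESC samples, mean 8.63 ± 1.42 (SD, n = 3), and 37.8, 58.5 and 65.4 in the ASC samples, mean 53.9 ± 14.4. In the AFSC samples it was 217.5, 261.5 and 202.6, mean 227.2 ± 30.6. Every ASC sample lay above every ESC sample and below every AFSC sample. EpiLCs stood at 217.5 ± 14.6 and EpiSCs at 119.5 ± 14.5. The ESC-ASC samples, at 7.13, 3.35 and 4.36, were the lowest of all, and the Myc values of ESCs and ESC-ASCs rested on 12 to 39 reads per sample.

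The log2 fold change of Myc in ASCs against ESCs was 2.61 ± 0.26 (SE; adjusted p = 1.57e-07, edgeR), a 6.12-fold higher level. Against AFSCs, ASCs were lower by 4.29-fold (log2 fold change -2.10 ± 0.20, adjusted p = 3.31e-08, edgeR). EpiLCs exceeded ESCs by 25.1-fold and EpiSCs exceeded ESCs by 13.6-fold (adjusted p = 1.12e-11 and 1.34e-10, edgeR). Within the primed cultures Myc was 1.92-fold higher in AFSCs than in EpiSCs (adjusted p = 0.000513, edgeR). ASCs and ESC-ASCs, which shared the ABCL medium, differed by 10.8-fold, with ASCs higher (adjusted p = 2.30e-09, edgeR). ESC-ASCs were 1.76-fold lower than ESCs (adjusted p = 0.0271, edgeR), and this call was lost without ESC replicate 2 (log2 fold change -0.66), ESC-ASC replicate 2 (-0.57) or ESC-ASC replicate 3 (-0.72). In the order AFSC, EpiLC, EpiSC, ASC, ESC, ESC-ASC, only AFSC and EpiLC were neighbours that did not differ beyond their spread (adjusted p = 0.810, edgeR).

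**Figure D2:**
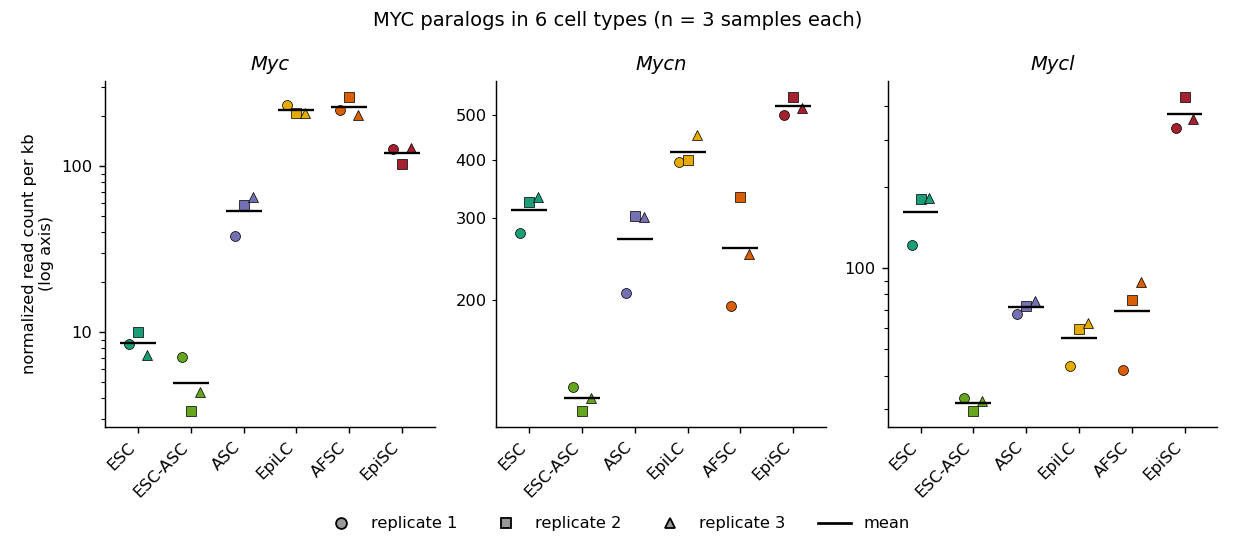
Normalized read count per kb (log axis, a separate range per panel) of Myc, Mycn and Mycl in each sample of the 6 cell types; symbols are replicates and bars are means of 3 samples. Myc ran from a mean of 4.95 in ESC-ASCs to 227.2 in AFSCs, whereas Mycn ran from 122.5 to 522.4.

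Mycn (ENSMUSG00000037169, chr12:12936096-12941914, minus strand), the paralog named for neuroblastoma, was the most abundant paralog by mean level in each of the 6 groups. It was 278.1, 325.3 and 333.8 in ESC samples, 206.8, 303.8 and 300.9 in ASC samples and 193.5, 332.3 and 251.4 in AFSC samples. These 3 groups overlapped, and neither ASC against ESC (log2 fold change -0.23, adjusted p = 0.267, edgeR) nor ASC against AFSC (0.03, adjusted p = 0.873) was called. EpiSCs held the highest level, 522.4 ± 23.9, which exceeded ESCs by 0.73 on the log2 scale (adjusted p = 0.00104, edgeR) and AFSCs by more, with AFSC against EpiSC at -0.996 (adjusted p = 0.000121). ESC-ASC samples, at 129.8, 115.0 and 122.6, lay below every other sample, with a log2 fold change of -1.37 ± 0.17 against ESCs (adjusted p = 1.70e-06, edgeR) and -1.14 ± 0.17 against ASCs (adjusted p = 2.67e-05). EpiLCs, at 416.7 ± 32.2, exceeded ESCs by 0.42 (adjusted p = 0.0436, edgeR), a call that each of the 6 fits without 1 EpiLC or ESC library lost (log2 fold change 0.33 to 0.47).

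Mycl (ENSMUSG00000028654, chr4:122995652-123002485, plus strand), which encodes L-MYC, was highest in EpiSCs, at 332.5, 432.6 and 358.1. ESC samples were at 122.4, 181.0 and 182.1, and ASC samples at 67.9, 72.5 and 75.8, so that the samples of these groups did not overlap. ASCs were 2.29-fold lower than ESCs (log2 fold change -1.20 ± 0.22, adjusted p = 0.000180, edgeR) and were not distinguished from AFSCs, at 69.2 ± 24.3 (0.03 ± 0.22, adjusted p = 0.927). AFSCs were 5.33-fold lower than EpiSCs (adjusted p = 6.74e-08, edgeR). ESC-ASCs, at 31.6 ± 1.83, were 5.20-fold lower than ESCs (adjusted p = 3.92e-08, edgeR) and 2.27-fold lower than ASCs (adjusted p = 0.000229). EpiLCs, at 55.1 ± 10.4, fell 2.93-fold below ESCs (adjusted p = 7.10e-06, edgeR), so among these paralogs Mycl was lower and Myc higher in EpiLCs.

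The make-up of the paralog pool followed from these levels. Myc made up 2.09, 1.96 and 1.39% of the summed counts per kb of Myc, Mycn and Mycl in ESC samples and 12.1, 13.5 and 14.8% in ASC samples. It made up 48.0, 39.0 and 37.3% in AFSC samples, and on average 31.6% in EpiLCs, 11.8% in EpiSCs and 3.07% in ESC-ASCs. The ASC samples lay wholly between ESC and AFSC samples, and the exact two-sided permutation test gave p = 0.1 for ASC against ESC, ASC against AFSC, EpiSC against ESC and ESC-ASC against ESC, which is the smallest p that 3 against 3 samples allow. With 4 such comparisons the adjusted p cannot fall below 0.1. Mycl made up 33.3% in ESCs and 36.7% in EpiSCs but 7.98% in EpiLCs. Summed over the paralogs, the level was 158.98 ± 11.0 in ESC-ASCs, 396.5 ± 72.8 in ASCs, 482.8 ± 64.0 in ESCs, 555.4 ± 109 in AFSCs, 689.3 ± 32.3 in EpiLCs and 1016 ± 62.6 in EpiSCs.

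**Figure D3:**
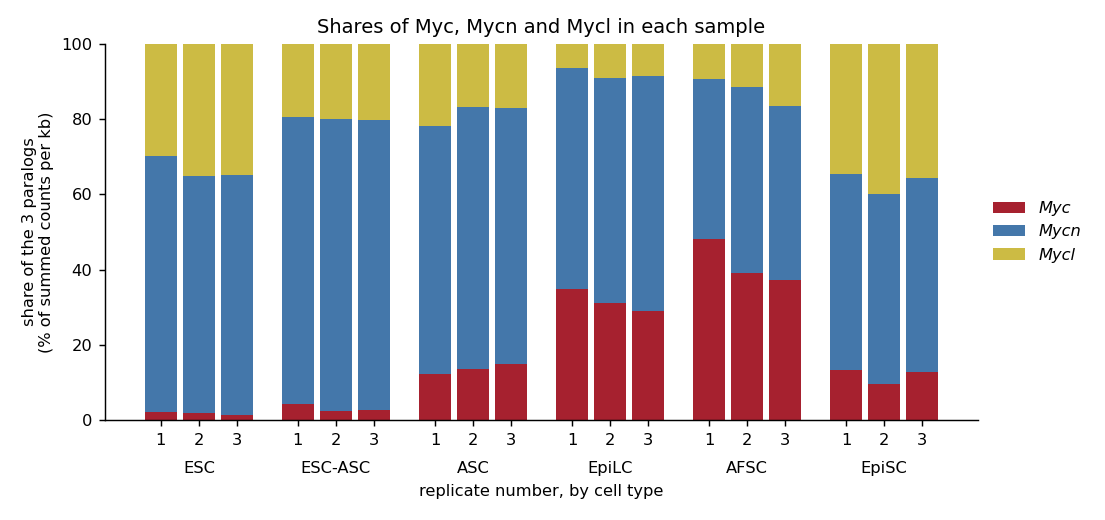
Share of Myc, Mycn and Mycl in the summed normalized read counts per kb of these 3 genes, in percent, for each of the 18 samples. Myc rose from 1.39 to 2.09% in ESC samples to 12.1 to 14.8% in ASC samples and 37.3 to 48.0% in AFSC samples, and Mycn was the largest part in every sample except AFSC replicate 1, where Myc was.

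Max (ENSMUSG00000059436, chr12:76937269-76962248, minus strand), the partner shared by the paralogs, had the narrowest range of means among members, 1.74-fold from AFSCs to EpiSCs. Its level was 522.4, 493.4 and 432.3 in ESC samples, and 212.0, 326.3 and 318.4 in ASC samples. Every ASC sample lay below every ESC sample, and the log2 fold change was -0.78 ± 0.15 (adjusted p = 0.000251, edgeR). Replicate 1 was the lowest ASC sample, and without the 4 libraries that stood apart the value was -0.51 (adjusted p = 0.000360, edgeR). AFSCs, at 282.4 ± 26.8, lay near ASCs (-0.01, adjusted p = 0.961, edgeR), but without the 4 libraries ASCs came out higher by 0.26 (adjusted p = 0.0410). EpiSCs, at 490.7 ± 40.7, were not distinguished from ESCs (0.01 ± 0.14, adjusted p = 0.943, edgeR) and were above AFSCs (AFSC against EpiSC -0.78, adjusted p = 0.000278). In ESC-ASCs, at 407.0 ± 26.1, Max was the 1 member that was higher than in ASCs past the threshold (0.52 ± 0.14, adjusted p = 0.00597, edgeR). EpiLCs lay below ESCs by a log2 fold change of -0.39 (adjusted p = 0.0303, edgeR), a call lost in 4 of 6 fits that left out 1 library (EpiLC replicate 2 or 3, ESC replicate 1 or 2, -0.31 to -0.39).

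Mga (ENSMUSG00000033943, chr2:119897228-119969581, plus strand), the MAX partner of PRC1.6, was the 1 member higher past the threshold both in ASCs than in AFSCs and in ESC-ASCs than in ESCs. It was 154.6, 160.1 and 145.0 in ESC-ASC samples and 81.5, 79.4 and 92.9 in ESC samples, without overlap, a log2 fold change of 0.84 ± 0.18 (adjusted p = 0.000585, edgeR). ASC samples were at 173.8, 88.5 and 102.0 and AFSC samples at 45.1, 37.2 and 43.4, again without overlap (1.51 ± 0.19, adjusted p = 1.17e-06, edgeR). Replicate 1 was far above the other ASC samples. ASC against ESC gave 0.50 (adjusted p = 0.0288, edgeR), the groups overlapped, and without the 4 libraries that stood apart the value was 0.15 (adjusted p = 0.237). The call also ended without ASC replicate 1 (0.15), ESC replicate 1 (0.46) or ESC replicate 2 (0.46) alone. ESC-ASCs against ASCs were not called with all libraries (0.34, adjusted p = 0.122, edgeR) but were without the 4 libraries (0.67, adjusted p = 3.76e-06). EpiSCs, at 44.4 ± 2.86, were below ESCs (-0.94 ± 0.19, adjusted p = 0.000211, edgeR). EpiLCs, at 66.6 ± 5.14, were not called against ESCs with all libraries (-0.34, adjusted p = 0.126, edgeR) but were without the 4 libraries (-0.33, adjusted p = 0.0105).

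The other subunits of the MGA complex did not move as 1 block. Of 13 measured, 2 were higher and 4 lower in ASCs than in ESCs, with a median log2 fold change of -0.27 beside 0.02 over all tested genes. In that comparison 26.4% of all genes were called higher and 23.9% lower. Yaf2, a RING1-binding subunit, was higher (1.54 ± 0.19, adjusted p = 2.80e-06, edgeR), as was E2f6, the other DNA-binding subunit (0.80 ± 0.22, adjusted p = 0.00549). The histone deacetylase Hdac2 (-1.36 ± 0.21, adjusted p = 3.72e-05, edgeR) and the heterochromatin protein gene Cbx3 (-0.93 ± 0.19, adjusted p = 0.000421) were lower. In ESC-ASCs against ESCs 4 were higher and 6 lower, median -0.27. In ESC-ASCs against ASCs 4 were higher and 0 lower, with Cbx1 (0.87 ± 0.12, adjusted p = 1.12e-05, edgeR) and Hdac2 (0.58 ± 0.21, adjusted p = 0.0261) higher, and without the 4 libraries 5 were higher and 3 lower.

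A list of 12 germline genes that PRC1.6 is known to bind was higher in ASCs than in ESCs for 9 genes and lower for 0, with a median log2 fold change of 1.34. Higher calls made up 26.4% of all tested genes in that comparison. Mael, a piRNA-pathway gene, was 51.0 ± 15.6 per kb in ASCs and 4.15 ± 0.81 in ESCs (3.60 ± 0.31, adjusted p = 6.83e-08, edgeR). Taf7l, a testis TFIID subunit gene, was 35.1 ± 0.78 and 3.41 ± 0.70 (3.28 ± 0.26, adjusted p = 2.59e-08, edgeR). In ESC-ASCs against ESCs 11 were higher and 0 lower, and in EpiLCs against ESCs 9 were higher and 1 lower (10 and 2 without the 4 libraries). EpiSCs went the other way, with 1 higher and 9 lower than ESCs and a median of -3.79, so most of these genes and Mga were both low in EpiSCs. In EpiLCs they did not go together. The list was higher than in ESCs (median 2.25), while mean Mga was 66.6 against 84.6 in ESCs, a decrease called only without the 4 libraries or with only these groups in the fit. Between the ABCL cultures 6 were higher and 2 lower in ESC-ASCs than in ASCs. Sycp3, a synaptonemal complex gene, was 2.07 ± 0.34 higher on the log2 scale in ESC-ASCs than in ASCs (adjusted p = 5.69e-05, edgeR), and Slc25a31, a testis nucleotide carrier, was lower (-1.11 ± 0.27, adjusted p = 0.00273). Zcwpw1, a meiotic gene, was higher there (1.45 ± 0.17, adjusted p = 1.56e-06, edgeR) and Taf7l lower (-0.70 ± 0.18, adjusted p = 0.00383). The study named Mael and Sycp3 among genes that were higher in ASCs than in EpiSCs and had demethylated promoters in ASCs. It described such germline genes as sensitive to promoter methylation, and as expressed in naive ESCs with unmethylated promoters. Promoter methylation was not examined here. The list was chosen with the naming of these genes known, so it is not independent evidence of a direction. Taf7l is X-linked, and the 641 X-linked genes tested had a median log2 fold change of 1.03 in ASCs against ESCs, beside -0.01 for all other genes, and 0.05 in ESC-ASCs against ESCs. The part of that shift in Taf7l was not tested.

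The E-box read by MAX dimers, CACGTG, which reads the same on both strands, was searched in 300-base RefSeq promoter windows (GRCm38.p6), reaching from 250 bases before a gene's start to 50 after it. It was in 7.15% of all windows and in windows of 11.5% of the tested genes that had one. Of the 12 germline genes, 8 held it (66.7%). These stretches of 30 bases are shown because they carry the letters that MGA with MAX is known to bind, with the E-box in capitals and each written 5′ to 3′ on the strand of its gene.
Mael, chr1:166238950-166238979, minus strand: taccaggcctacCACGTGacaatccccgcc
Taf7l, chrX:134476522-134476551, minus strand: accctcttatacCACGTGacagaactcgcc
Stk31, chr6:49395472-49395501, plus strand: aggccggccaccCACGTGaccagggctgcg
Stag3, chr5:138280327-138280356, plus strand: cgcgctggagccCACGTGacaggactgcac
Sycp3, chr10:88459511-88459540, plus strand: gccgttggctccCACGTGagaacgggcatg
Slc25a31, chr3:40708766-40708795, plus strand: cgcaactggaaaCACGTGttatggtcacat
Sites of Ddx4 and Tdrd1 and another site of Sycp3 are not shown. A match is a description of letters and shows no binding in these cells.

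Among the members, 9 genes had a window (11 windows) and 3 genes held the E-box: Max, Mxd4 and Mnt. No window was at hand for Myc. The window of Max was the only one among the members whose bases after the start were not found in a transcript of its gene. The windows of the antagonists Mxd1, Mxd3 and Mxi1 held no E-box. The sites of Mxd4 and Mnt are shown because these antagonists had an E-box near their start.
Mxd4, chr5:34187912-34187941, minus strand: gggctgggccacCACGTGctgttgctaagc
Mnt, chr11:74830789-74830818, plus strand: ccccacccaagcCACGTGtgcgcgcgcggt
The first base of the E-box lay 219 bases before the start of Mxd4 and 123 bases before that of Mnt.

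Mnt (ENSMUSG00000000282, chr11:74830920-74845725, plus strand), the broadly expressed MYC antagonist, was highest in ESCs. Its level was 128.9, 193.7 and 200.1 in ESC samples, 101.2, 129.3 and 138.7 in ASC samples and 60.8, 87.3 and 76.6 in AFSC samples. ASC samples lay above every AFSC sample (0.69 ± 0.19, adjusted p = 0.00333, edgeR) and overlapped ESC samples through ESC replicate 1, the lowest of its group. The call against ESCs (-0.53 ± 0.18, adjusted p = 0.0211, edgeR) ended without ASC replicate 1 (-0.41), ESC replicate 2 (-0.44) or ESC replicate 3 (-0.42), and was kept without the 4 libraries together (-0.55, adjusted p = 0.000250). AFSCs against EpiSCs were not called with all libraries (0.19, adjusted p = 0.456, edgeR) but were without the 4 libraries (0.32, adjusted p = 0.0185). EpiSCs, at 66.2 ± 8.95, were below ESCs (log2 fold change -1.41, adjusted p = 2.14e-06, edgeR). EpiLCs (-1.13, adjusted p = 3.61e-05, edgeR) and ESC-ASCs (-1.02, adjusted p = 8.50e-05) were also below ESCs. ESC-ASCs were below ASCs by a log2 fold change of -0.49 (adjusted p = 0.0305, edgeR), a call lost in 5 of 6 fits that left out 1 library (ASC replicate 2 or 3, or any of the ESC-ASC samples, -0.40 to -0.49).

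Mxi1 (ENSMUSG00000025025, chr19:53310506-53375810, plus strand), the MXD family antagonist also called MXD2, separated naive from primed cells. It was 97.4, 80.6 and 82.2 in ESC samples, 63.6, 78.4 and 78.1 in ASC samples and 21.1, 17.9 and 16.2 in AFSC samples. ASCs exceeded AFSCs by 3.92-fold (log2 fold change 1.97 ± 0.14, adjusted p = 4.54e-10, edgeR) and their difference from ESCs was not called (-0.26 ± 0.13, adjusted p = 0.0932). EpiSCs, at 15.3 ± 0.81, were 5.67-fold below ESCs (adjusted p = 9.87e-12, edgeR), and EpiLCs, at 42.0 ± 0.57, were 2.05-fold below (adjusted p = 1.26e-06). ESC-ASCs, at 53.4 ± 4.78, were below ESCs (-0.71 ± 0.12, adjusted p = 7.42e-05, edgeR) and below ASCs (-0.45 ± 0.12, adjusted p = 0.00541). Mean Mxi1 was thus higher, and mean Myc lower, in ESCs, ASCs and ESC-ASCs than in EpiLCs, AFSCs and EpiSCs. Within these sets the genes did not mirror each other. EpiLCs exceeded EpiSCs in both genes, and ESC-ASCs were below ESCs in both. The step in Mxi1 from ESC-ASCs to EpiLCs was small (0.32 ± 0.13, adjusted p = 0.0306, edgeR). Exons of Mxi1 share 194 bases, 3.45% of its exonic length, with Gm10197 on the other strand, and the counting did not use strand.

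Mxd4 (ENSMUSG00000037235, chr5:34173883-34187720, minus strand), an antagonist linked to differentiation, was highest in AFSCs, at 36.7, 40.5 and 41.4, and next in EpiSCs, at 20.4 ± 1.55. ASC samples were at 8.14, 7.96 and 8.79, below every AFSC sample by 4.85-fold on average (log2 fold change -2.28 ± 0.23, adjusted p = 6.35e-08, edgeR). ESC samples were at 2.79, 5.90 and 6.84 and ESC-ASC samples at 1.19, 0.691 and 0.889. The ESC-ASC samples were the lowest of all 18, on 12 to 20 reads each, with a log2 fold change of -2.55 ± 0.30 against ESCs (adjusted p = 6.04e-07, edgeR) and -3.14 ± 0.28 against ASCs (adjusted p = 4.58e-08). EpiSCs were 3.75-fold above ESCs (adjusted p = 1.19e-06, edgeR), and AFSCs 1.96-fold above EpiSCs (adjusted p = 0.00113). Mxd4 was high where Myc was high among AFSCs and EpiSCs but not in EpiLCs, at 5.98 ± 1.68, which were not distinguished from ESCs (0.17 ± 0.26, adjusted p = 0.609, edgeR). Its exons share 514 bases (6.06%) with Gm42846 on the other strand.

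Mxd3 (ENSMUSG00000021485, chr13:55325168-55329758, minus strand), the antagonist expressed in dividing cells, was the member most affected by the libraries that stood apart. AFSC samples were at 409.0, 179.7 and 150.8, EpiLC samples at 444.2, 233.0 and 269.0 and ESC samples at 253.6, 147.1 and 153.9, with replicate 1 the highest in each. ASC samples, at 85.5, 140.2 and 116.0, had replicate 1 as the lowest. ASC against AFSC gave -1.13 ± 0.32 (adjusted p = 0.00481, edgeR) but -0.36 without the 4 libraries (adjusted p = 0.0240) and -0.57 without AFSC replicate 1 alone (adjusted p = 0.0633). EpiLC against ESC gave 0.79 (adjusted p = 0.0401, edgeR), lost without EpiLC replicate 1 (0.45), ESC replicate 2 (0.65) or ESC replicate 3 (0.68). Without the 4 libraries, EpiSCs were above ESCs (0.97, adjusted p = 2.43e-07, edgeR) and AFSCs below EpiSCs (-0.83, adjusted p = 4.10e-06), neither of which was called with them (0.69, adjusted p = 0.0645, and -0.26, adjusted p = 0.546). Only replicates 2 and 3 of ESC and AFSC remained there, so these adjusted p-values reflect a reduced spread. Its exons share 104 bases (4.998%) with Prelid1 on the other strand, a gene with 1060 to 4642 reads per sample.

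Mxd1 (ENSMUSG00000001156, chr6:86647042-86669161, minus strand), the founding MXD gene, was low throughout, with means of 5.35 to 10.2 on 30 to 120 reads per sample. It was highest in ESC samples, at 9.47, 11.03 and 10.3, above every ASC sample, at 7.17, 6.75 and 7.75. EpiLCs were below ESCs by a log2 fold change of -0.94 ± 0.20 (adjusted p = 0.000633, edgeR). The smaller differences of ASCs (-0.53, adjusted p = 0.0319, edgeR) and EpiSCs (-0.52, adjusted p = 0.0288) from ESCs each lost their call in 4 of 6 fits that left out 1 library (ESC replicate 2 or 3, with ASC replicate 1 or 2 and EpiSC replicate 1 or 2), at -0.46 to -0.54. No neighbouring groups in the order of Mxd1 or Mxd3 levels were called.

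**Figure D4:**
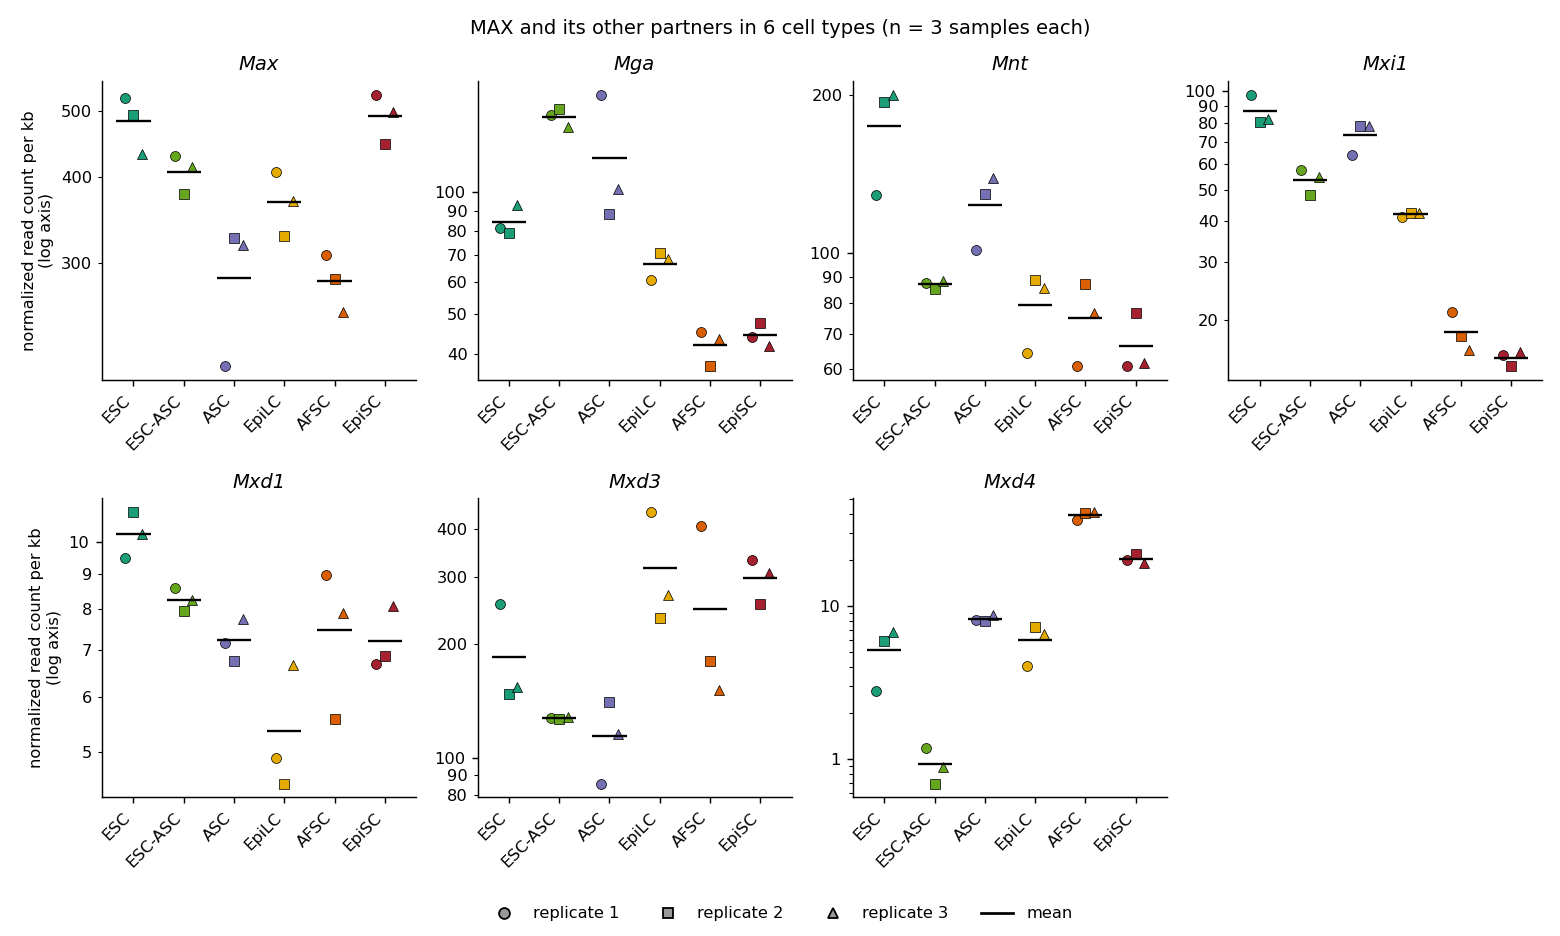
Normalized read count per kb (log axis, a separate range per panel) of Max, Mga, Mnt, Mxi1, Mxd1, Mxd3 and Mxd4 in each sample; symbols are replicates and bars are means of 3 samples. Mxi1 fell from a mean of 86.7 in ESCs to 15.3 in EpiSCs, Mxd4 was highest in AFSCs at 39.5, and replicate 1 of Mxd3 was at 409.0 in AFSCs and 444.2 in EpiLCs.

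The balance between the paralogs and the 5 antagonists was expressed as the log2 ratio of their summed levels per kb. It was -0.27, 0.24 and 0.21 in ESC samples, 0.23, 0.26 and 0.34 in ASC samples and -0.24, 1.02 and 0.89 in AFSC samples. Without the 4 libraries the difference was 0.08 for ASC against ESC and -0.65 for ASC against AFSC. With them, these groups overlapped (exact two-sided permutation test, p = 0.2 for ASC against ESC and p = 0.4 for ASC against AFSC). EpiSCs, at 1.32 ± 0.20, lay above all ESC samples and ESC-ASCs, at -0.80 ± 0.07, below them (p = 0.1 each, the smallest possible with the exact permutation test). Replicate 1 was the lowest sample in every group except ESC-ASC.

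The next question was whether ABCL medium went with the same differences from either starting cell type. The difference ASC minus AFSC was set against ESC-ASC minus ESC in 1 interaction term, a comparison added after the data were seen. It was called for 6 of 10 members, where 58.5% of all genes were. Mxi1 was 1.97 higher in ASCs than AFSCs but lower in ESC-ASCs than ESCs (-0.71), an interaction of 2.68 ± 0.18 (adjusted p = 3.85e-10, edgeR). Mnt likewise was higher in ASCs than AFSCs (0.69) and lower in ESC-ASCs than ESCs (-1.02). Mycl and Mycn were lower in ESC-ASCs than ESCs (-2.38 and -1.37), while in ASCs against AFSCs their values were 0.03 each and were not called. The labels do not say that these ESC samples were the parents of the ESC-ASCs. Myc was lower in both comparisons, by more in ASCs against AFSCs (-2.10) than in ESC-ASCs against ESCs (-0.82), an interaction of -1.28 ± 0.36 (adjusted p = 0.00499, edgeR). The second value rested on 12 to 39 reads per sample and lost its call in 3 of 6 fits that left out 1 library. Mxd4 was lower in both comparisons (-2.28 and -2.55), and the interaction was 0.27 ± 0.36 (adjusted p = 0.540, edgeR). The interaction of Mga (0.67, adjusted p = 0.0332, edgeR) was lost without ASC replicate 1 (0.32), AFSC replicate 2 (0.59), ESC replicate 3 (0.59), ESC-ASC replicate 1 (0.66) or ESC-ASC replicate 3 (0.62). That of Max became called without the 4 libraries that stood apart (0.46, adjusted p = 0.00830, edgeR).

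**Figure D5:**
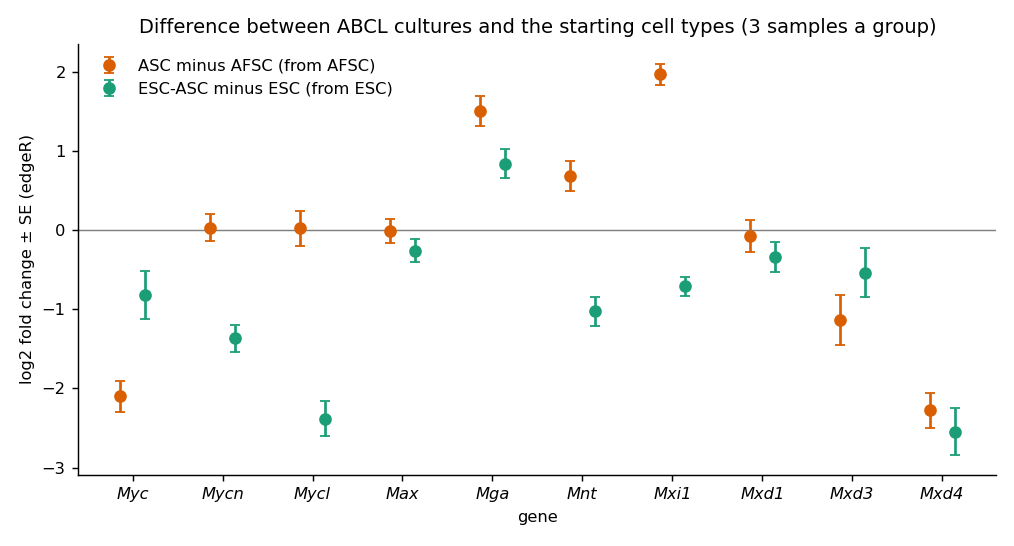
Log2 fold change (edgeR, bars are SE) of each member in ASC minus AFSC and in ESC-ASC minus ESC, with 3 samples per group. Mga lies above 0 and Myc and Mxd4 below 0 in both comparisons, whereas Mxi1 and Mnt lie on opposite sides of 0.

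The MLX branch of the network, whose proteins pair with MLX in place of MAX and respond to glucose, was measured through 3 genes. Mlxip, which encodes MondoA, was 1.09 ± 0.21 higher on the log2 scale in ASCs than in ESCs (adjusted p = 0.000270, edgeR) and 1.28 ± 0.20 higher in ESC-ASCs than in ESCs (adjusted p = 2.47e-05). Mlxipl, which encodes ChREBP, was lower in ASCs (-1.61 ± 0.25, adjusted p = 4.28e-05, edgeR) and Mlx was lower too (-0.97 ± 0.15, adjusted p = 3.17e-05). In EpiSCs against ESCs Mlxip was higher (1.08 ± 0.21, adjusted p = 0.000147, edgeR) and Mlxipl (-3.03 ± 0.28, adjusted p = 1.66e-08) and Mlx (-1.02 ± 0.15, adjusted p = 6.82e-06) lower. In EpiLCs against ESCs Mlxipl (-2.82 ± 0.28, adjusted p = 5.47e-08, edgeR) and Mlx (-0.46 ± 0.15, adjusted p = 0.0113) were lower, and Mlxip was not called (0.27). In ESC-ASCs against ESCs Mlxipl was lower (-2.87 ± 0.26, adjusted p = 2.52e-08, edgeR) and Mlx was not called (-0.12). Between the ABCL cultures Mlx was higher (0.84 ± 0.15, adjusted p = 0.000102, edgeR) and Mlxipl lower (-1.27 ± 0.26, adjusted p = 0.000630) in ESC-ASCs, and Mlxip was not called (0.20). In ASCs against AFSCs Mlx was lower (-0.84 ± 0.15, adjusted p = 6.64e-05, edgeR), and Mlxip (0.44) and Mlxipl (0.34) were not called. In AFSCs against EpiSCs Mlxipl (1.08 ± 0.29, adjusted p = 0.00616, edgeR) and Mlx (0.90 ± 0.15, adjusted p = 7.49e-05) were higher, and Mlxip was not called (-0.44). The retrogene Mycs of the same list had 0 reads in every sample and was not tested.

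Cofactors of MYC were lower in ASCs than in ESCs for most genes of the list. Of 23 genes, 0 were higher and 16 lower in ASCs than in ESCs, with a median log2 fold change of -0.50 beside 0.02 over all genes, where 26.4% of all genes were called higher and 23.9% lower. The largest decreases were in Epc1 (-1.004 ± 0.12, adjusted p = 1.10e-06, edgeR) and Vps72 (-0.88 ± 0.18, adjusted p = 0.000489), genes of the TIP60 chromatin complex. In ASCs against AFSCs 6 were higher and 7 lower, median -0.08. In ESC-ASCs against ESCs 0 were higher and 14 lower (1 and 16 without the 4 libraries that stood apart), and in EpiLCs against ESCs 2 were higher and 10 lower (5 and 14). Against ASCs, ESC-ASCs had a lower level of Trrap, the scaffold of MYC-bound acetyltransferases (-0.88 ± 0.15, adjusted p = 8.85e-05, edgeR), and a higher level of the ATPase Ruvbl2 (0.65 ± 0.16, adjusted p = 0.00265). Epc2 was lower (-0.80 ± 0.13, adjusted p = 5.95e-05, edgeR) and Ing3 higher (0.65 ± 0.15, adjusted p = 0.00158) in the same comparison. Of the 14 corepressor genes of the MXD proteins, 1 was higher (Rbbp7, which is X-linked, 1.02 ± 0.16, adjusted p = 3.15e-05, edgeR) and 5 were lower in ASCs than in ESCs, Hdac2 and Sap30 (-0.89 ± 0.18, adjusted p = 0.000625) most. The median over the 641 X-linked genes was 1.03 in that comparison, and the part of that shift in Rbbp7 was not tested. In ESC-ASCs against ASCs Rbbp4 (0.55 ± 0.15, adjusted p = 0.00574, edgeR) and Hdac2 were higher, and Brms1 (-0.57 ± 0.19, adjusted p = 0.0156) and Sin3b (-0.57 ± 0.16, adjusted p = 0.00511) were lower.

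Genes for the turnover of MYC protein gave 2 higher and 7 lower of 17 in ASCs against ESCs, with a median log2 fold change of -0.30. Over all tested genes the median was 0.02, and 26.4% were called higher and 23.9% lower. Huwe1, an X-linked ubiquitin ligase gene, was higher (1.15 ± 0.15, adjusted p = 4.43e-06, edgeR), as was Ppp2r5a, a PP2A subunit gene (0.63 ± 0.13, adjusted p = 0.000694). Gsk3b, the kinase that marks MYC for degradation, was lower (-0.56 ± 0.15, adjusted p = 0.00581, edgeR), and Stub1, a ubiquitin ligase gene, was lower too (-0.75 ± 0.15, adjusted p = 0.000356). In ESC-ASCs against ASCs the level of Usp28, which removes ubiquitin from MYC, was higher (1.20 ± 0.11, adjusted p = 7.31e-08, edgeR) and that of Fbxw7, the ligase it counteracts, was lower (-0.86 ± 0.21, adjusted p = 0.00204). Huwe1 was lower (-1.05 ± 0.15, adjusted p = 1.15e-05, edgeR) and Cip2a, a PP2A inhibitor gene, was higher (0.47 ± 0.15, adjusted p = 0.0167). Over the 641 X-linked genes tested, the median on the log2 scale was 1.03 in ASCs against ESCs and -0.91 in ESC-ASCs against ASCs. The part of these shifts in Huwe1 was not tested.

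The list of 65 MYC target genes for ribosome biogenesis and growth did not follow the level of Myc in each comparison. Myc was 1.81% of the summed paralogs in ESCs and 13.5% in ASCs. That sum was 482.8 in ESCs, 396.5 in ASCs (samples overlapping), 689.3 in EpiLCs, 555.4 in AFSCs, 1016 in EpiSCs and 159.0 in ESC-ASCs. The list did not follow that sum in each comparison either. In EpiSCs against ESCs, where the sum was higher, called targets were near even. With all libraries, ESC-ASCs against ASCs had more targets higher than lower, although the sum was lower. A link to Myc or to the sum was not tested. In ASCs against ESCs, where Myc was higher, 5 targets were higher and 30 lower, with a median log2 fold change of -0.32. Over all genes the median was 0.02, and 26.4% were called higher and 23.9% lower. In EpiLCs against ESCs, where Myc was higher too, 28 were higher and 6 lower, median 0.40 beside 0.06 over all genes, where 28.7% of all genes were called higher and 26.6% lower. EpiSCs against ESCs gave 13 higher and 12 lower (median 0.07), and without the 4 libraries that stood apart 22 and 20. In ASCs against AFSCs 7 were higher and 23 lower (15 and 23 without the 4 libraries), median -0.26. In ESC-ASCs against ESCs 11 were higher and 24 lower, median -0.16, and in ESC-ASCs against ASCs 16 were higher and 11 lower (16 and 22 without the 4 libraries), median 0.07. AFSCs against EpiSCs gave 5 higher (7.69% of the list) and 8 lower (12.3%), where 21.6% and 17.8% of all genes were called. Without the 4 libraries the counts were 12 and 19.

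Among those targets, Ldha, the lactate dehydrogenase of glycolysis, had a level of 6329 per kb in ASCs against 1613 in ESCs (1.95 ± 0.29 on the log2 scale, adjusted p = 2.66e-05, edgeR). Las1l, an X-linked gene of pre-ribosomal RNA processing, was higher by 0.94 ± 0.16 (adjusted p = 0.000101, edgeR), where the median of X-linked genes was 1.03. Ppan, a ribosome assembly gene, was lower (-1.07 ± 0.20, adjusted p = 0.000202, edgeR). In ESC-ASCs against ASCs Gnl3, the nucleolar GTPase nucleostemin, was higher (0.93 ± 0.17, adjusted p = 0.000217, edgeR), and the mitotic kinase gene Plk1 was lower (-0.95 ± 0.16, adjusted p = 8.91e-05). Dctpp1, a nucleotide pyrophosphatase gene, was higher (0.88 ± 0.23, adjusted p = 0.00370, edgeR). Of the 58 targets with a promoter window, 16 held the E-box (27.6%). Both sites of Ldha and the site of Imp4 are shown because these genes were named for the size of their difference.
Ldha, chr7:46845647-46845676, plus strand: ggtgtcgcagcaCACGTGgagccactcttg
Ldha, chr7:46845744-46845773, plus strand: cggcccagcctaCACGTGggttcccgcacg
Imp4, chr1:34439696-34439725, plus strand: acggtcttagacCACGTGacatcccaaatc
Imp4, a nucleolar processing gene, was lower in ESC-ASCs than in ASCs (-1.05 ± 0.16, adjusted p = 2.54e-05, edgeR).

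Dusp2 and Dusp7 are phosphatases of ERK that have been described as MYC targets in embryonic stem cells. Dusp2 was at 2.16 per kb in ESCs and 8.03 in ASCs (1.82 ± 0.42, adjusted p = 0.00154, edgeR), at 14.5 in EpiLCs and 15.6 in AFSCs. In EpiSCs it was at 13.9, and the order of its means over ESC, ASC, EpiSC, EpiLC and AFSC was that of Myc. With all libraries, Dusp2 in AFSCs against EpiSCs was not called (0.20, adjusted p = 0.602, edgeR), whereas Myc was. In ESC-ASCs, at 4.82, Dusp2 was above ESCs (1.09 ± 0.42, adjusted p = 0.0313, edgeR), a call that was lost without the 4 libraries. Dusp7 was lower in ASCs than in ESCs (-0.84 ± 0.16, adjusted p = 0.000358, edgeR) and lower in ESC-ASCs than in ESCs (-0.75 ± 0.16, adjusted p = 0.000434). With all libraries it was not called in EpiLCs (0.20) or EpiSCs (-0.20) against ESCs, where Myc was higher.

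Other genes with patterns close to the members were sought by Pearson's r of log2 (normalized count + 1) over the 18 samples, which share group structure and depth, so these are descriptions. Nearest to Myc were Prdx6, a peroxiredoxin (r = 0.978), Lypd6 (0.965) and Basp1 (0.960). Nearest to Mycn were Gm9242 (0.967), Rfx1 (0.952) and Ppp2r1b (0.948), and nearest to Mycl were Hnrnpr (0.958), Fam83d (0.949) and Auts2 (0.942). Mxi1 lay closest to Accsl (0.991), Fam25c (0.987) and the naive marker Zfp42 (0.983). Mga lay closest to Atl3 (0.971), Tfrc (0.963) and 1700126G02Rik (0.962), Mnt to Nf2 (0.972), 4732471J01Rik (0.971) and Kdm2b (0.960), and Mxd4 to Irs2 (0.976), Rai1 (0.976) and Gpatch3 (0.964). Mxd3 lay closest to Lsm1 (0.980), Snrpf (0.979) and Srp19 (0.976). Max and Mxd1 had the weakest nearest genes, Nsmce4a (0.928), Prpf39 (0.901) and H2afz (0.875) for Max and R3hdm2 (0.873), Rnf43 (0.855) and Mark4 (0.843) for Mxd1.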

How the data were processed

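Total RNA was enriched for polyA RNA, made into strand-marking libraries (NEBNext) and sequenced. The authors aligned reads with TopHat2 to GRCm38/mm10 and made the deposited read counts per gene with featureCounts 1.5.0-p1 over exons of Ensembl 86 genes, counting multi-mapping and multi-overlapping reads (minimum overlap 10 bases) without strand. The raw count was used as deposited. Gene symbols matched 35514 of 35773 identifiers. Genes with at least 10 reads in at least 3 samples (16901) entered edgeR 4.0.16 (R 4.3.3) with TMM normalization, robust dispersion and all 18 samples in 1 quasi-likelihood fit, and p-values were adjusted within each comparison by the Benjamini-Hochberg method. The SE is the absolute log2 fold change divided by the square root of F. Levels used DESeq2 1.42.0 size factors and exonic length. Ratios and shares were compared by exact permutation. The code was tested on simulated data. A first criterion, on the recovery of changed genes at all count levels, was not met. It was then replaced by criteria on bias, false calls and recovery among genes with higher expected counts. Power for genes with low counts is therefore limited.

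Members and lists were chosen with earlier results of these data known. Genes were named by rule: every member, the 2 called genes at each end of each list in ASC against ESC and in ESC-ASC against ASC, all genes of lists of at most 6, and the 3 genes nearest each member. Values of other comparisons for such genes, the interaction, the E-box search and its shown sites, and the omission of 4 libraries were chosen after seeing the data. Alternatives were RLE normalization, no or another low-count filter (1 CPM in 3 samples), a replicate block, fits of 2 groups, DESeq2, thinned ESC-ASC counts, levels without length and each library left out. Protein sequences were not used here.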

Additional observations from a re-analysis of the deposited data

Results flagged for a closer look

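The difference that went with ABCL medium differed with the starting cell type for 6 members, by the edgeR interaction of ASC minus AFSC against ESC-ASC minus ESC (added after the data were seen, quasi-likelihood test, Benjamini-Hochberg adjusted over 16901 genes, of which 58.5% were called). The interaction on the log2 scale was 2.68 for Mxi1 (adjusted p = 3.85e-10), 2.40 for Mycl (adjusted p = 2.11e-06) and 1.71 for Mnt (adjusted p = 1.49e-05). It was 1.40 for Mycn (adjusted p = 6.39e-05), 0.67 for Mga (adjusted p = 0.0332) and -1.28 for Myc (adjusted p = 0.00499). Medium, line of origin and, for ESC-ASCs, sequencing depth cannot be told apart in these values.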

How the results depend on the processing

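Across 80 member log2 fold changes under all alternatives (1110 values), 26 values changed sign, each for a difference that was not called with all libraries. Leaving out 1 library gave these ranges: ASC against AFSC, -0.14 to 0.25 for Mycn, -0.23 to 0.24 for Mycl, -0.11 to 0.17 for Max and -0.245 to 0.0647 for Mxd1. For Mxd4 in EpiLC against ESC it was -0.0843 to 0.404, and for Max in EpiSC against ESC -0.0601 to 0.0766. In AFSC against EpiSC it was -0.13 to 0.0070 for Mga, -0.0805 to 0.23 for Mxd1 and -0.83 to 0.00097 for Mxd3, and in ESC-ASC against ASC -0.0037 to 0.34 for Mxd3. Without the 4 libraries that stood apart, ASC against AFSC was -0.16 for Mycl, 0.26 for Max and 0.0965 for Mxd1, AFSC against EpiSC was -0.0772 for Mxd1, and ESC-ASC against ASC was -0.0293 for Mxd3. For Max in ASC against AFSC the value was 0.0167 with RLE normalization, 0.00096 with no filter, 0.022 with 2 groups in the fit and 0.0171 with DESeq2. The causes were not tested.

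In ASC against ESC the count of called members was 3 with only these groups in the fit and 3 to 6 with 1 library left out. In EpiLC against ESC it was 5 to 6 with 1 library left out. Without division by length, the difference in Myc share was 9.67 percentage points (ASC against ESC) and 7.94 (EpiSC against ESC), and the log2 ratio of paralogs to antagonists differed by 1.61 in EpiSC against ESC. Nothing in the labels pairs samples by number, and the correlation of deviations was above 0.1 in 19 of 45 same-numbered pairs (mean 0.081) and 20 of 90 others (mean -0.038), so pairing was not assumed, and a shared effect of the number was not tested. With the replicate block, 7 members were called in ASC against ESC (Mxd4 added, 0.62) and 9 in EpiSC against ESC (Mxd3 added, 0.72), and the other 5 comparisons kept their member counts. Low counts limit Myc in ESCs and ESC-ASCs, Mxd1 and Mxd4.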
